A study of Schizosaccharomyces pombe with 12 samples.

Results

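The transcriptome described here is that of Schizosaccharomyces pombe (fission yeast) cells with wild-type histone H3, grown in rich medium at 25 °C. It comprises the 3 libraries labelled H3 WT of the 12 in the series, taken by their genotype label. The other 9 libraries, used to compare the shares of transcript classes and for single values beside the H3 WT ones, form 3 groups of 3: cells with H3 G34R, cells with H3 G34V, and H3 WT cells labelled Set2D. Every culture was grown overnight in YES, a rich yeast extract medium, in 25 mL, and 2 µg of DNase-treated total RNA went into each library, with ribosomal RNA removed by a yeast depletion kit. The labels give neither the mating type, nor auxotrophic markers, nor the number of intact H3 and H4 genes in these strains, and they do not state if the libraries of a group were grown as separate cultures. An SD therefore describes the spread between libraries, which may be technical.

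Fission yeast is a unicellular fungus that ferments sugar to ethanol even in the presence of oxygen. Its growing cells spend much of their transcription on ribosomes, translation factors and glycolytic enzymes, whereas mating, meiosis and spore formation follow starvation. Many of its genes are accompanied by noncoding transcripts, either between genes or antisense to them, and the ends of its chromosomes are packed in silent chromatin.

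The files listed 7013 genes. The 3 libraries held 160193734, 159950870 and 228726069 counts in genes, which was 75.6 to 75.7% of all counts, and reads aligned to several places, which were not counted to any gene, took 12.7 to 13.2%. Levels are given as CPM (a gene's count per 1000000 counts in genes) and, to compare levels between genes, as TPM (counts per kilobase of exon, scaled to the same sum). Ranks by counts and noncoding RNAs are given in CPM, a share of the counts that does not correct for length. Values are mean ± SD with n = 3, and 3 counts, the limit that a count of 0 allows, correspond to 0.0131 to 0.0188 CPM. These limits cover counting error only. As a check of the label, transcripts of set2, the H3 lysine 36 methyltransferase, stood at 129.6, 128 and 119.8 CPM in the 3 H3 WT libraries, against 4.04 ± 0.449 CPM in the Set2D group.

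Counts were spread over most of the genome. Of all genes, 6122 (87.3%) had a mean of at least 1 CPM, 2118 were at or above 100 CPM, and the median gene stood at 48.2 CPM. Genes between 10 and 100 CPM were the most numerous class, 3021 genes with 14.5% of the counts, while 1982 genes between 100 and 1000 CPM held 50.9% and 136 genes above 1000 CPM held 34.1%. The 10 highest genes held 10.4 ± 0.205% of the counts and the 100 highest 30.3 ± 0.358%. It took 375 genes to reach 50% of the counts and 2688 to reach 90%. Per kilobase the distribution was more concentrated, with 37.0 ± 0.288% in the 100 highest genes and 50% reached by 204, 213 and 209 genes in the 3 libraries.

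By counts, the gene with the most reads was tdh1, the glycolytic glyceraldehyde-3-phosphate dehydrogenase, at 15185, 15115 and 16619 CPM (15639 ± 849). Close behind were nmt1, an enzyme that makes the pyrimidine part of thiamine, at 13735, 13674 and 13378 CPM, SPAC1F8.07c, annotated as a pyruvate decarboxylase, at 13057, 12851 and 14192 CPM, and eno101, an enolase, at 13164, 12991 and 13721 CPM. In counts, tdh1 was above the other 3 genes in each library, while the ranges of SPAC1F8.07c, eno101 and nmt1 overlapped. Next in order were met26, the methionine synthase, at 10396 ± 189 CPM, the mitochondrially encoded cox1 at 8234 ± 110.3, the aldolase fba1 at 7990.2 ± 261, the mitochondrial row SPMIT.06, which has no annotated product in the table used here, at 7535 ± 296, the alcohol dehydrogenase adh1 at 7488 ± 378 and the phosphoglycerate kinase pgk1 at 6748 ± 176 CPM. The remaining genes of the top 20 by counts were cox2 (6090.2 ± 124 CPM), the Hsp70 chaperone ssa2 (6041 ± 123 CPM), actin act1 (5575 ± 56.6 CPM), the translation elongation factors tef103 (5413 ± 174 CPM) and tef3 (5361 ± 154 CPM), the serine hydroxymethyltransferase shm1 (5037 ± 169 CPM), the thiazole synthesis enzyme thi2 (4969 ± 496 CPM), cox3 (4456 ± 48.1 CPM), the adenosylhomocysteinase SPBC8D2.18c (4415 ± 107 CPM) and the ribosome-associated Hsp70 sks2 (4296 ± 86.9 CPM). Neighbours in this part of the order lay within each other's SD in many cases, such as tef103 and tef3, or thi2 and shm1. Within libraries, tef103 was above tef3 in each of the 3, by little in replicate 1. By contrast, thi2 was above shm1 in replicates 1 and 2 and below it in replicate 3.

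Per kilobase, the order of protein-coding genes changed at the top. nmt1 stood at 15701, 15726 and 15450.0 TPM and tdh1 at 14892, 14912 and 16466 TPM. nmt1 was the higher of the pair in replicates 1 and 2 and tdh1 in replicate 3, so their means, 15626 ± 152 and 15424 ± 903 TPM, lay within the spread between libraries. They were followed by eno101 (13108 ± 425 TPM), SPAC1F8.07c (10200.0 ± 592 TPM), fba1 (8976 ± 334 TPM), the phosphoglycerate mutase gpm1 (7435 ± 258 TPM), adh1 (6733 ± 367 TPM), thi2 (6079 ± 578 TPM), pgk1 (5908 ± 134 TPM) and met26 (5382 ± 75.7 TPM). The next 10 were tef103, the small ribosomal subunit gene rps102 (4808 ± 103 TPM), act1, the triosephosphate isomerase tpi1 (4296 ± 24.0 TPM), shm1, tef101 (3883 ± 139 TPM), SPBC8D2.18c, ssa2, and the ribosomal protein genes rpl8 (3774 ± 77.7 TPM) and rps21 (3654 ± 141 TPM). The 100 highest protein-coding genes per kilobase included 55 genes of cytosolic ribosomal proteins. Their median exon length was 783 bases, against 1685 bases over the 5067 protein-coding genes with a count, and 35.0% of them had introns, against 48.2%.

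**Figure D1:**
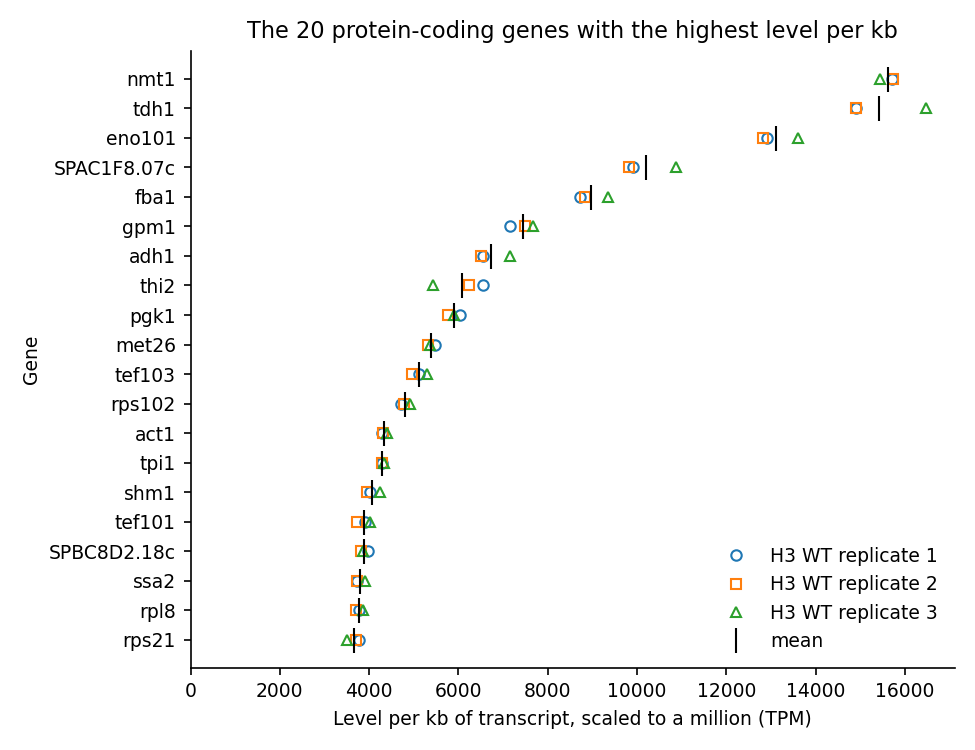
Level per kilobase of the 20 protein-coding genes with the highest mean, on a linear TPM axis from 0, with each of the 3 H3 WT libraries as a symbol and the mean as a tick. The genes run from nmt1 at 15626 ± 152 TPM to rps21 at 3654 ± 141 TPM, and the 3 symbols of tdh1 and thi2 lie further apart than those of tpi1.

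Sugar breakdown had the highest median level of the lists examined. The 13 glycolytic genes held 6.10 ± 0.148% of the counts, and their median level was 3132 ± 119 TPM, 50.6 times the median of 61.9 TPM over all protein-coding genes. All but eno102 were above that median. The steps from aldolase to pyruvate were the more abundant in RNA: tdh1, eno101, fba1, gpm1, pgk1, tpi1 and the pyruvate kinase pyk1 (3132 ± 119 TPM) lay above the hexokinases hxk2 (1108 ± 7.94 TPM) and hxk1 (579 ± 5.23 TPM), the phosphofructokinase pfk1 (902 ± 26.3 TPM) and the phosphoglucose isomerase pgi1 (633 ± 27.4 TPM). The paired isoenzymes were very unequal, with eno102 at 51.0 ± 3.10 TPM beside eno101, and the second glyceraldehyde-3-phosphate dehydrogenase gpd3 at 859.6 ± 21 TPM beside tdh1. Of the 6 genes listed for ethanol fermentation, SPAC1F8.07c and adh1 carried nearly all the transcript. The others were adh4 at 305 ± 8.12, SPAC3G9.11c at 174 ± 8.30, SPAC13A11.06 at 7.56 ± 0.303 and SPAC186.09 at 3.17 ± 0.00951 TPM, the last 3 annotated as pyruvate decarboxylases and adh4 as an alcohol dehydrogenase. Of the hexose transporters, ght8 (709 ± 12.2 TPM) and ght5, a high-affinity glucose symporter (696 ± 3.01 TPM), were far above ght2 (91.0 ± 4.00 TPM), ght1 (48.9 ± 1.13 TPM), ght4 (38.6 ± 1.26 TPM), ght3 (8.59 ± 0.901 TPM), ght6 (7.32 ± 0.165 TPM) and ght7 (1.18 ± 0.0655 TPM). The plasma membrane proton pump gene pma1 stood at 662 ± 30.7 TPM and its homologue pma2 at 3.03 ± 0.0472 TPM.

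Respiration was also transcribed. The 31 listed nuclear genes of the respiratory chain and ATP synthase had a median of 364 ± 13.4 TPM, 5.87 times the coding median, and ran from sdh3, a succinate dehydrogenase subunit (185 ± 3.56 TPM), to the ATP synthase subunit atp2 (1449 ± 7.83 TPM), so that all 31 were above the median of coding genes. Genes that glucose is known to repress were lower as a group, with a median of 39.0 ± 0.982 TPM over 9 genes, 0.630 times the coding median. Of these, the gluconeogenic fbp1 stood at 23.6 ± 0.919 TPM, the invertase inv1 at 67.3 ± 1.22, the glycerol genes gld1 and gut2 at 140.2 ± 1.25 and 81.5 ± 3.78, the galactose genes gal7, gal1 and gal10 at 48.9 ± 3.19, 35.7 ± 2.28 and 17.7 ± 0.894, the glucosidase agl1 at 39.0 ± 0.982 and the galactosidase mel1 at 4.48 ± 0.222 TPM. None of the 9 was near zero, and gld1, gut2 and inv1 were above the coding median.

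The machinery of translation was high as well. The 138 listed cytosolic ribosomal protein genes together held 9.30 ± 0.119% of the counts. Over the 137 with an exon length, the median was 1359 ± 33.4 TPM, 22 times the coding median, and 136 lay above it. The exception was rpl1603, at 26.0 ± 0.129 TPM. The 12 elongation, initiation and termination factors had a median of 1694 ± 63.9 TPM. The 3 genes of elongation factor 1A, which brings tRNA to the ribosome, differed: tef103 and tef101 stood at 5120.1 ± 176 and 3883 ± 139 TPM and tef102 at 1589 ± 64.5 TPM. The elongation factor 2 genes eft202 and eft201 stood at 485 ± 13.2 and 287 ± 5.54 TPM, the release factors sup35 and sup45 at 318 ± 5.80 and 212 ± 1.30 TPM, and tef5 (the exchange factor of elongation factor 1A), tef3, SPAC1006.07 (annotated as eIF4A), tif51 (eIF5A) and tif11 (eIF1A) at 2392 ± 44.3, 2329 ± 68.5, 1799.6 ± 63.6, 1845 ± 20.4 and 687 ± 22.7 TPM. Factors that assemble ribosomes were lower than the ribosomal proteins themselves, with a median of 131 ± 0.932 TPM over 16 genes, from nop2 (55.1 ± 0.889 TPM) to nop56, a core protein of snoRNA particles (689.9 ± 8.90 TPM).

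Most ribosomal proteins of this yeast are encoded by several genes, and the copies ranged from level to very unequal. In 52 families with at least 2 genes the median ratio of the highest to the lowest copy, which is at least 1 by construction, was 1.85, with 22 families above 2-fold and 6 above 5-fold. The widest gap was in the 3-gene rpl16 family, where rpl1602 stood at 1404, 1312 and 1296 TPM and rpl1603 at 26.1, 25.9 and 26.0 TPM, a ratio of 51.4 ± 2.03. The other 5 were rpl3401 over rpl3402 at 12.9 ± 0.233, rpp102 over rpp101 at 9.59 ± 0.535, rpl101 over rpl102 at 7.0 ± 0.144, rpl3001 over rpl3002 at 5.97 ± 0.102 and rpl801 over rpl803 at 5.22 ± 0.0703. In each of these families the ratio exceeded 5 in all 3 libraries. At the other end rpl2701 over rpl2702 was at 1.02 ± 0.0527, with rpl2702 the higher in replicate 3, and rpl1202 over rpl1201 at 1.05 ± 0.0356. Next below the 6 families came rps1402 over rps1401 at 4.96 ± 0.284, rps2201 over rps2202 at 4.26 ± 0.0546, rpl2802 over rpl2801 at 3.87 ± 0.223 and rpl1001 over rpl1002 at 3.84 ± 0.0866. Paralogs of this kind can be close in sequence, and reads that align to several places were not counted, so each ratio is that of the uniquely aligned reads.

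**Figure D2:**
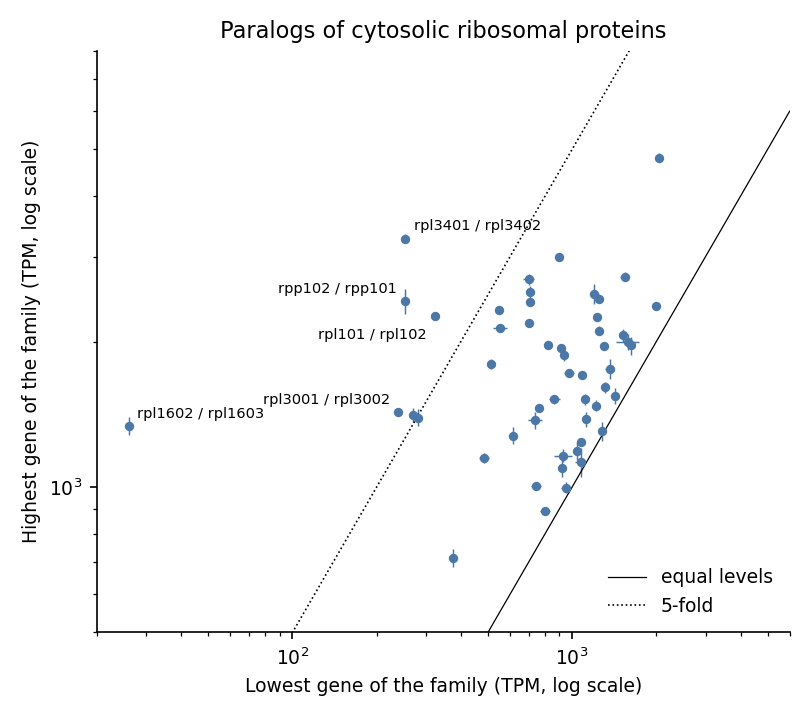
Levels per kilobase of the highest against the lowest gene in each family of cytosolic ribosomal proteins with at least 2 genes, on logarithmic axes, as mean and SD over 3 H3 WT libraries. Most of the 52 families lie between the line of equal levels and the dotted 5-fold line, and rpl1602 over rpl1603 stands apart at 51.4-fold.

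Genes of protein folding ranged widely and those of protein turnover narrowly. The median of 15 chaperone genes was 656 ± 3.10 TPM, from the Hsp20 family gene SPCC338.06c (160.0 ± 8.30 TPM) to ssa2 (3792 ± 92.8 TPM). The heat shock protein genes hsp16 and hsp9 stood at 203 ± 8.87 and 2761 ± 146 TPM at this growth temperature of 25 °C. The 18 proteasome genes spanned a narrow range, from rpn501 (63.9 ± 2.26 TPM) to rpt5 (339 ± 4.28 TPM), 5.31-fold from lowest to highest. The second gene of the subunit that rpn501 encodes, rpn502, stood at 98.8 ± 2.13 TPM. The RNA polymerase II genes spanned 7.90-fold, from rpb3 (40.9 ± 0.922 TPM) to rpb6, a subunit shared with the other polymerases (323 ± 1.80 TPM). The largest subunits rpb1 and rpb2 were at 149 ± 1.78 and 160.5 ± 1.92 TPM, further apart than their SDs, and the others were rpb10 at 294 ± 2.40, rpb5 at 227 ± 6.58, rpb4 at 203 ± 9.51, rpc10 at 191 ± 2.09, rpb11 at 161 ± 1.64, rpb7 at 86.8 ± 5.22, rpb8 at 83.4 ± 2.16 and rpb9 at 54.4 ± 1.14 TPM.

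Biosynthetic genes were on in this rich medium. The 35 amino acid synthesis genes had a median of 366 ± 3.44 TPM, 5.91 times the coding median, with ilv5 of branched-chain synthesis the highest (2757 ± 58.4 TPM) and arg7 (41.0 ± 0.797 TPM) and lys7 (18.4 ± 0.0682 TPM) the lowest. The 10 purine synthesis genes ran from ade5 (86.3 ± 1.89 TPM) to ade10 (794 ± 10.6 TPM), with ade2, ade3, ade4, ade1, ade7, ade6, ade8 and ade9 at 552 ± 10.7, 410.3 ± 10.4, 329 ± 10.4, 268 ± 6.06, 261 ± 3.15, 178 ± 5.1, 174 ± 3.93 and 94.8 ± 1.78 TPM. Ergosterol genes had a median of 126 ± 0.353 TPM over 18 genes, from spo9 (29.8 ± 1.08 TPM) to erg5 (589 ± 21.2 TPM). The genes used in fission yeast as selectable markers were expressed, with leu1 at 626 ± 12.4, his3 at 393 ± 6.89, ade6 at 178 ± 5.1, lys1 at 147 ± 9.19, arg3 at 176 ± 3.80, his5 at 221 ± 2.55 and his7 at 264 ± 4.41 TPM. The exception was ura4, the orotidine phosphate decarboxylase, at 0.194, 0.250 and 0.240 CPM, close to zero in all 3 libraries (0.316 ± 0.0432 TPM).

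The genes that thiamine is known to repress were high. Although the list was drawn up as genes low in rich medium, the 5 genes had a median of 1945 ± 100.4 TPM, 31.4 times the coding median, and held 2.27 ± 0.0571% of the counts. Beside nmt1 and thi2, the phosphatase pho4 stood at 1924, 1856 and 2054 TPM, thi4 at 454, 462 and 473 TPM and the transporter thi9 at 458, 446 and 479 TPM. All 5 were above the coding median in every library. thi2 was lowest in replicate 3, at 6555, 6246 and 5436 TPM in the 3 libraries. The thiamine content of the medium is not stated in the labels, and its part in these levels was not tested. Genes induced when phosphate is short were also above the coding median: pho1, a secreted acid phosphatase, stood at 3319.9, 3355 and 3429 TPM, the transporter pho84 at 723 ± 28.6 TPM, the phosphate transporter genes SPAC23D3.12 and SPBC1683.01 at 253 ± 7.68 and 119.5 ± 3.93 TPM and tgp1, a glycerophosphodiester transporter, at 83.4 ± 1.73 TPM.

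Genes that respond to scarce nitrogen or iron lay on both sides of the median coding gene. The 12 nitrogen genes had a median of 73.7 ± 2.23 TPM, 1.19 times the coding median. They were isp6 (295 ± 4.01 TPM), aat1 (172 ± 7.06 TPM), the ammonium transporters amt2, amt1 and amt3 (168 ± 5.19, 108 ± 7.37 and 45.7 ± 1.90 TPM), ste11, the transcription factor of mating (112 ± 4.11 TPM), per1 (76.0 ± 1.11 TPM), isp7 (71.3 ± 3.36 TPM), fnx1 (39.8 ± 1.58 TPM), put4 (35.6 ± 1.30 TPM), isp4 (28.4 ± 0.422 TPM) and isp5 (13.5 ± 1.39 TPM). The 10 iron genes had a median of 68.7 ± 1.90 TPM, with the iron transport oxidase fio1 and permease fip1 highest (251 ± 17.5 and 226 ± 16.4 TPM), then str1, fep1, sib2, sib1, php4 and str3 at 171 ± 7.33, 80.5 ± 2.15, 78.6 ± 4.61, 60.4 ± 1.83, 53.1 ± 2.51 and 28.8 ± 2.76 TPM, and the ferric reductase frp1 and transporter str2 lowest (14.4 ± 2.56 and 13.4 ± 0.250 TPM). Cell cycle genes had a median of 52.9 ± 1.94 TPM over 16 genes, from wee1, a kinase that holds back mitosis (18.9 ± 0.524 TPM), to suc22, the small subunit of ribonucleotide reductase (414 ± 7.13 TPM). Cell wall synthesis genes had a median of 69.7 ± 0.679 TPM over 15 genes, from mok12 (19.7 ± 0.872 TPM) to the glucanosyltransferase gas2 (609.9 ± 9.13 TPM), and the 13 cytoskeleton genes a median of 266 ± 9.81 TPM, from the formin for3 (39.6 ± 0.840 TPM) to act1.

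Histone counts came mainly from a subset of the histone genes. H2B had the highest level, with htb1 at 2379 ± 28.1 TPM, and the H2A genes hta2 and hta1 were at 534 ± 27.2 and 477 ± 29.0 TPM. Of the 3 H3 genes, hht2 stood at 1566, 1547 and 1596 TPM, hht3 at 2.91, 3.58 and 3.72 TPM and hht1 at 0.204, 0.130 and 0.145 TPM. Of the H4 genes, hhf2 stood at 928 ± 17.6 TPM, while hhf1 had 0, 5 and 5 counts and hhf3 had 6, 2 and 7 counts in the 3 libraries. Nearly all uniquely aligned H3 and H4 counts therefore came from the hht2 and hhf2 genes. The low levels of hht1, hhf1 and hhf3 were found in all 12 libraries, at or below 0.126 CPM in each group's mean. Sequence elsewhere in the reference, at 90% identity or more, matched 49.9% of the length of hht1, 38.6% of hhf1 and 50.8% of hhf3. Reads that aligned to several places are absent from these counts. Whether hht1, hhf1 and hhf3 are present in these strains is not stated in the labels. The variants H2A.Z (pht1) and the centromeric H3 (cnp1) stood at 52.2 ± 2.37 and 19.7 ± 0.281 TPM. The 17 genes of heterochromatin and H3 lysine 36 methylation had a median of 38.7 ± 0.284 TPM, 0.625 times the coding median, with the HP1 protein swi6 the highest (118 ± 3.56 TPM), set2 at 62.6 ± 2.32 TPM, and tas3, of the RNA interference complex on chromatin, and the H3 lysine 9 methyltransferase clr4 the lowest (22.6 ± 0.793 and 16.8 ± 0.764 TPM).

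Genes of the sexual cycle were low but mostly not silent. The 23 meiosis genes had a median of 10.8 ± 0.119 TPM, 0.175 times the coding median, and the 15 sporulation genes a median of 15.9 ± 0.163 TPM. At the top of the first list were mmi1 (79.7 ± 1.74 TPM), whose protein removes meiotic transcripts from growing cells, and mei2 (69.0 ± 2.37 TPM), the RNA-binding switch into meiosis. At its bottom were rec15 (2.15 ± 0.181 TPM), needed for meiotic DNA breaks, and mei3 (0.877, 0.954 and 0.953 TPM), which triggers meiosis in diploid cells. The sporulation list ran from the DDK family kinase spo4 (0.357, 0.449 and 0.333 TPM) and the kinase mde3 (3.02 ± 0.0948 TPM) to spo15, of the spindle pole body (162 ± 5.46 TPM). In a culture, a low level cannot be told apart from a high level in few of its cells. Of 25 wtf genes, the meiotic drivers of this species, wtf14 was highest (99.5 ± 1.37 TPM) and wtf3 and wtf2 lowest (2.05 ± 0.262 and 1.42 ± 0.0930 TPM), around a median of 12 ± 0.130 TPM, and members of this family are alike in sequence.

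Genes of both mating types were read. Of the M-cell list, the M-factor pheromone genes mfm2, mfm1 and mfm3 stood at 551 ± 36.4, 167 ± 13.2 and 23.2 ± 0.686 TPM, the pheromone exporter mam1 at 38.1 ± 3.10, the P-factor receptor mam2 and the adhesion protein mam3 at 26.7 ± 0.724 and 24.2 ± 1.09, and the carboxypeptidase sxa2 at 15.7 ± 0.549 TPM. Of the P-cell list, the protease sxa1 stood at 369 ± 4.53 TPM, the P-factor gene map2 at 33.7 ± 1.14, the M-factor receptor gene map3 at 12.5 ± 0.0919 and the agglutination protein gene map4 at 16.4 ± 0.639 TPM. The mating-type cassettes themselves had few counts: mat1-Mi had 83, 73 and 155 counts in the 3 libraries, mat1-Mc and mat3-Mc at most 2 in any library, and mat2-Pc and mat2-Pi 0. Cassettes share sequence, and reads that could not be placed uniquely are absent from these counts.

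**Figure D3:**
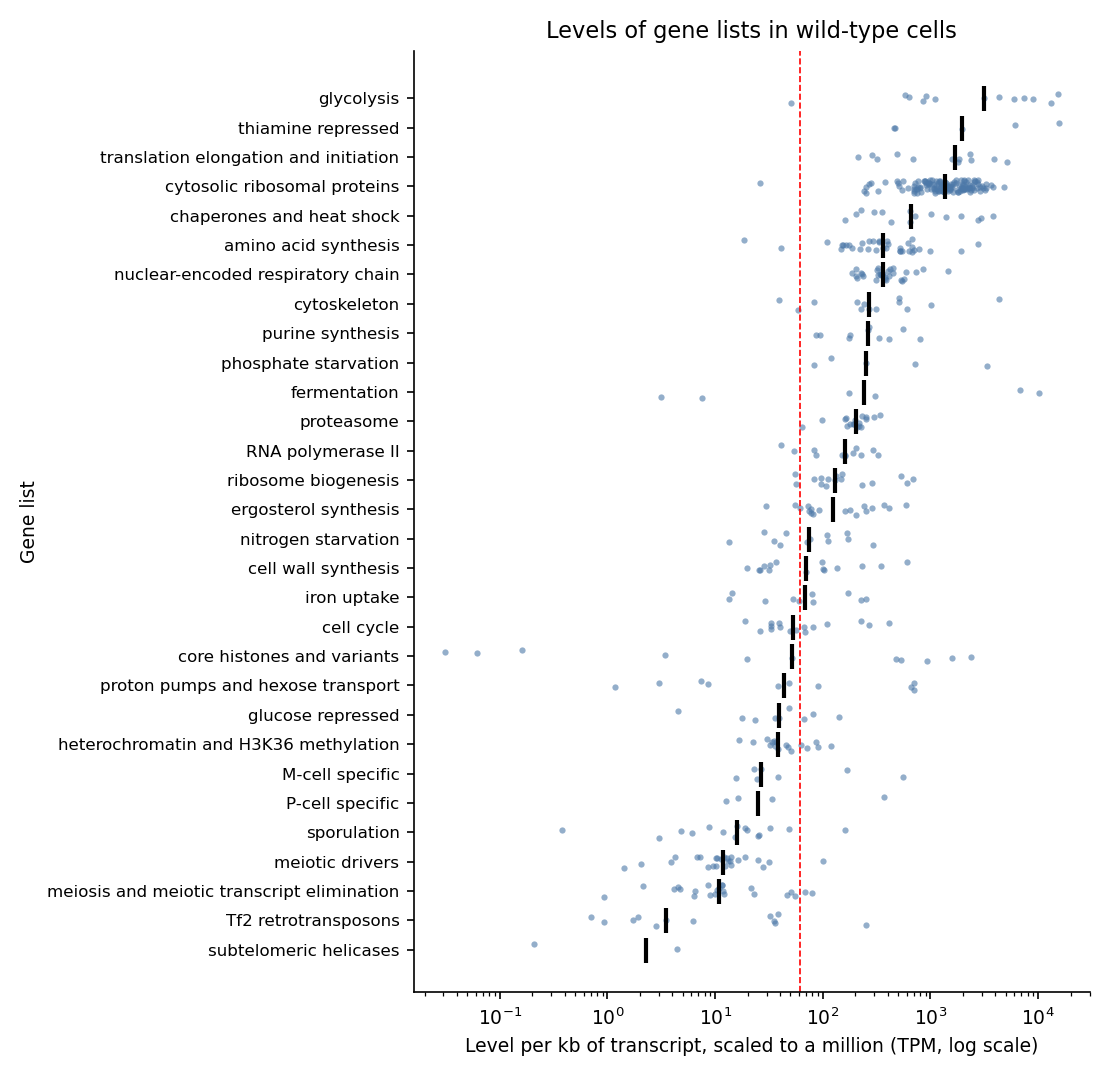
Levels per kilobase of the members of each gene list in H3 WT cells, on a logarithmic axis, as 1 point per gene (mean of 3 libraries), with the list median as a black tick and the median of 61.9 TPM over all protein-coding genes as a dashed line; genes at 0 lie off the axis. Glycolysis, thiamine, translation factor and ribosomal protein lists sit to the high side, and meiosis, wtf and Tf2 lists to the low side.

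By transcript class, nuclear protein-coding genes took 94.5 ± 0.0740% of the counts with 5085 genes. Mitochondrially encoded genes took 3.36, 3.47 and 3.39% with 38 rows, nearly all of it in the cytochrome oxidase genes cox1, cox2 and cox3, the row SPMIT.06, the apocytochrome b gene cob1 (2861 ± 37.7 CPM), and the ATP synthase genes atp9 (2302 ± 30.4 CPM) and atp6 (1663 ± 231 CPM). atp6 had the widest spread of these, at 1418, 1695 and 1877 CPM. The 850 long noncoding RNAs held 0.605 ± 0.00692% and the 635 antisense RNAs that carry the name of a sense gene 0.678 ± 0.00935%. Small structural RNAs were few in counts: 64 snoRNAs held 0.253 ± 0.0375%, the group of 7SL RNA, RNase P RNA, MRP RNA and telomerase RNA 0.210 ± 0.0253% and 6 snRNAs 0.0256 ± 0.00325%. With classes taken from names alone, which among other moves puts the U3 genes snu3 and snu32 and protein-coding genes such as snu13 among the snRNAs, snoRNAs held 0.108% and snRNAs 0.228%. Ribosomal RNA, the target of the depletion and encoded by repeated copies, held 0.000143% and 171 nuclear tRNAs 0.00202 ± 0.000149%. Rows that matched no annotated gene and whose name gave no class numbered 44 and held 0.318 ± 0.00393%.

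**Figure D4:**
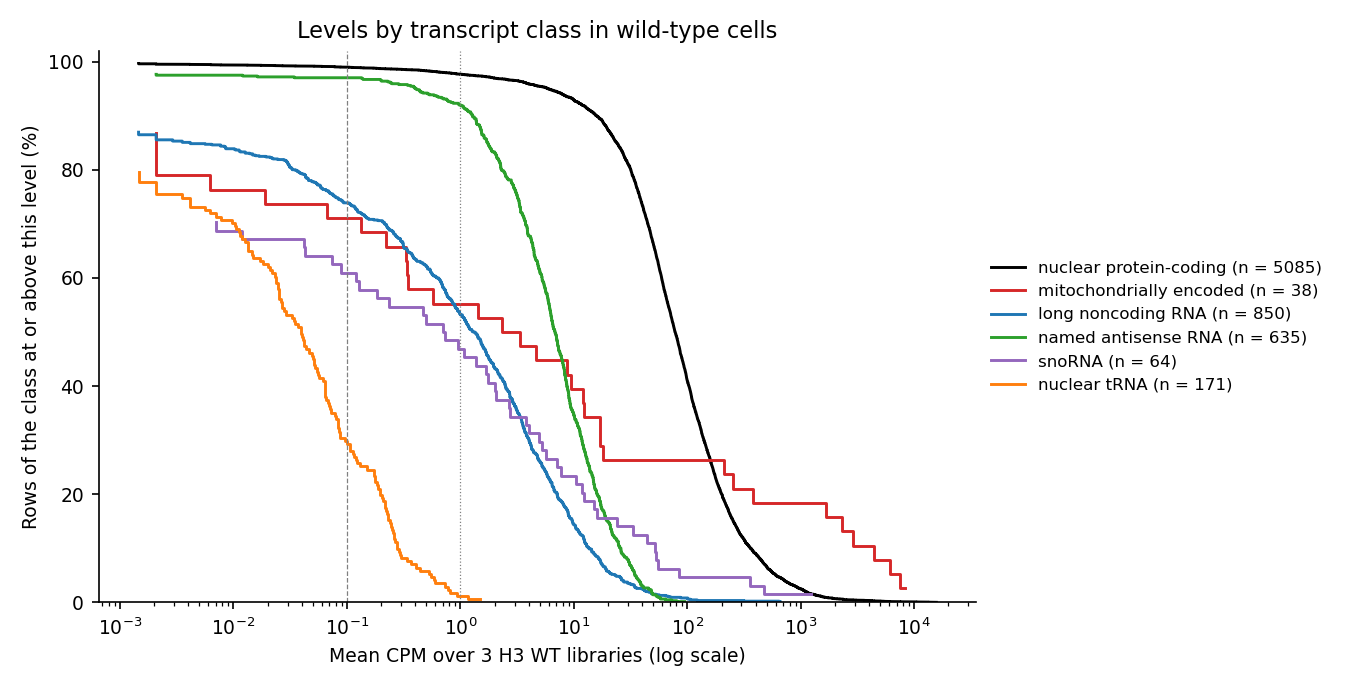
Percent of the genes (rows of the files) of each transcript class at or above a given mean CPM over 3 H3 WT libraries, on a logarithmic CPM axis; genes at 0 lie off the axis to the left, and the dashed and dotted lines mark 0.1 and 1 CPM. At 1 CPM the curve of protein-coding genes is at 97.7%, that of named antisense RNAs at 92% and that of long noncoding RNAs at 53.3%.

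The classes differed in how many members were read at all. Of protein-coding genes 97.7% had at least 1 CPM, with a median of 78 CPM. Of the named antisense RNAs 92% did, with a median of 6.82 CPM, whereas of the long noncoding RNAs 53.3% did, with a median of 1.32 CPM, and 222 (26.1%) were under 0.1 CPM. Of the nuclear tRNAs, 120 (70.2%) were under 0.1 CPM and the highest, SPATRNAPRO.02, reached 1.5 ± 0.150 CPM. Reads that aligned to several places were not counted, and CPM does not correct for length. The tRNA values therefore do not measure how much tRNA the cells made. Among snoRNAs the range was wide: 19 of 64 were at 0 in all 3 libraries, while the processing snoRNA U3 from snu3 stood at 1452, 1207 and 1060.2 CPM, its second copy snu32 at 433, 339.7 and 288 CPM and sno12 at 544, 487 and 384 CPM. The signal recognition particle RNA srp7 stood at 1476, 1275 and 1102 CPM, the RNase P RNA rrk1 at 699, 621 and 574 CPM and telomerase RNA ter1 at 189.5, 189.5 and 185 CPM. MRP RNA, grouped with them above, was under 0.1 CPM. srp7, rrk1 and the U3 genes were highest in replicate 1 and lowest in replicate 3, whereas ter1 was level. Among the spliceosomal snRNAs, snu2 was highest (228 ± 27.6 CPM), far above snu1 (13.2 ± 3.91 CPM), snu6 (9.91 ± 1.39 CPM), snu5 (1.24 ± 0.0546 CPM) and snu4 (0.609 ± 0.205 CPM). Order among these small RNAs is by counts, without regard to length, and how well the libraries recovered short RNAs was not tested.

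Among long noncoding RNAs of the SPNCRNA and prl series, 2 stood out. SPNCRNA.111, annotated as a cis-acting repressor of ste11, was at 663, 647 and 664 CPM, and SPNCRNA.863 at 617, 644 and 673 CPM. The sets of 3 values overlapped. They were followed by SPNCRNA.935 (316 ± 5.60 CPM), SPNCRNA.1263 (122 ± 0.435 CPM), SPNCRNA.953 (107 ± 0.743 CPM), SPNCRNA.1626 (101 ± 4.93 CPM), SPNCRNA.1318 (101 ± 3.62 CPM), SPNCRNA.992 (87.6 ± 1.71 CPM), SPNCRNA.1287 (67.5 ± 1.29 CPM) and SPNCRNA.1116 (56.5 ± 1.28 CPM). Of these, SPNCRNA.935, SPNCRNA.992 and SPNCRNA.1287 are annotated as a possible alternative UTR (untranslated region of an mRNA), so they may not be separate transcripts. SPNCRNA.111 and SPNCRNA.863 each took more counts than the majority of protein-coding genes, whose median was 78 CPM, without regard to length.

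The antisense RNAs were set against the gene they are named for in 569 pairs. The median antisense RNA had 12.6% of its sense gene's CPM, which is not a per-kilobase comparison, since antisense names mostly lack an exon length here. In 57 pairs (10.0%) the antisense RNA was the higher. The median sense gene of these pairs stood at 5.86 CPM, against 56.8 CPM over all pairs. Choosing pairs in which the antisense RNA is the higher favours low sense levels by construction. The highest antisense RNAs were those to cwf19, a splicing factor gene (94.7 ± 1.87 CPM, sense 38.3 ± 1.55 CPM), to SPAC22G7.05, whose sense gene is listed as kri1 (80.8 ± 1.68 CPM, sense 83.7 ± 2.73 CPM), to the protein kinase gene ppk3 (72.8 ± 0.947 CPM, sense 79.6 ± 2.60 CPM), to SPBC19C2.10 (64.2 ± 0.910 CPM, sense 45.3 ± 0.527 CPM) and to sgt1 (57.8 ± 1.39 CPM, sense 37.4 ± 1.78 CPM). The largest ratios were at hhf3, at 4.20 ± 0.129 CPM antisense and 0.0269 ± 0.0129 CPM sense, and at spo4, at 45.4 ± 2.34 CPM antisense and 0.370 ± 0.0598 CPM sense. The hhf3 sense value rests on 6, 2 and 7 uniquely aligned counts in the libraries. The library kit keeps the strand, but the strand setting of the counting is not given in the sources used here, and these ratios rest on it.

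Genes without counts were few. Reads that aligned to several places or were ambiguous between genes were counted to no gene. A count of 0 therefore does not show that a gene is silent. Across all classes 245 genes (3.49%) were at 0 in all 3 H3 WT libraries, which allows up to 0.0131 to 0.0188 CPM per library, and 528 (7.53%) had a mean under 0.1 CPM. Of the 245, 111 were long noncoding RNAs, 35 nuclear tRNAs, 32 nuclear rRNAs, 19 snoRNAs, 18 protein-coding genes and 15 antisense RNAs. In all 12 libraries of the series 204 were at 0, and the highest value of the other 41 in any library was 0.0461 CPM, for snR10.

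Most of the 18 protein-coding genes at 0 shared sequence or position with another gene. The share of all protein-coding genes that would pass the same cuts is not given here. The counts below therefore describe these genes and do not set them apart from the rest. Of these, 6 were matched over more than 50% of their length, at 90% identity or more, by sequence elsewhere in the reference: Tf2-8, a retrotransposon, the transporters SPBPB10D8.05c, SPBPB10D8.06c and SPBPB10D8.07c, the dehydrogenase SPBC1348.09, and SPBC1348.15. A further 8 overlapped another gene of the same strand over more than 50%: tco1, SPAC959.11, sfc7, ost5, new9, SPBC3E7.17, SPBC2A9.13 and SPCC417.15. For new9, the overlapping gene was not among the counted genes. The remaining 4 were mzt1 and SPCC18.20, with a shorter overlap of 35.5% and 11.2%, and coa3 and new15, with neither. coa3 is annotated as an assembly factor of cytochrome oxidase, and mzt1 as a component of the microtubule-nucleating complex. Another 35 protein-coding genes were above 0 but under 0.1 CPM, and 23 of these had such a match elsewhere. The histone genes hht1, hhf1 and hhf3 belonged to the 35.

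Chromosome ends stood out for low levels. Of the 123 protein-coding genes within 100 kb of an end of chromosome I or II, 24 (19.5%) were under 0.1 CPM, against 24 of 4051 (0.592%) elsewhere on these chromosomes. The median was 4.17 ± 0.0634 TPM near the ends and 63.8 ± 0.925 TPM elsewhere. The gene with the highest level there was pho1, at 3368 ± 55.6 TPM. Of those 24 genes near the ends, 23 also had a match elsewhere at 90% identity or more over more than 50% of their length, so that position and repeated sequence cannot be told apart for them. The share of the other genes near the ends with such a match is not given here. The helicase genes nearest the ends, tlh1 and tlh2, stood at 0.209 ± 0.0238 and 4.40 ± 0.151 TPM. The 13 Tf2 retrotransposons had a median of 3.5 ± 0.279 TPM, with Tf2-11 highest at 253 ± 8.73 TPM and Tf2-13 (0.701 ± 0.0190 TPM) and Tf2-8 (at 0 counts) lowest, and these copies are nearly identical. Among the 500 lowest protein-coding genes with a count, 84 (16.8%) lay within 100 kb of these ends, against 2.33% of all, and 44 (8.80%) were named mug, for genes upregulated in meiosis, against 2.07% of all.

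The 3 H3 WT libraries were close to each other. Correlations of log2 CPM between pairs were 0.9996 to 0.9998 across genes, which are not independent replicates, and the common biological coefficient of variation from edgeR was 3.11% over 6507 genes. Their counts differed by more than sampling noise, with a chi-square of 15.9 to 41.2 per degree of freedom between pairs, so no file repeats another. This does not show that they came from separate cultures. Of the 5558 genes with a mean of at least 5 CPM, the median coefficient of variation was 2.52%, where counting error alone gives 0.881%, and 54 genes (0.972%) were above 10%. Spread was uneven between classes. The median was 2.45% for 4853 protein-coding genes, 3.14% for 390 named antisense RNAs and 3.67% for 222 long noncoding RNAs. It was 7.76% for 19 snoRNAs and 14.0% for only 3 snRNAs.

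Of the 10 genes that varied most, 5 were small structural RNAs. The 5558 genes at a mean of 5 CPM or more included 19 snoRNAs and 3 snRNAs. They also included 3 genes of the signal recognition particle, RNase P and telomerase RNAs. U1 snRNA (snu1) was at 17.5, 12.3 and 9.91 CPM, a coefficient of variation of 29.5%. The others of this kind were snu32, sno12 and snu3, given above, and sno20 at 14.8, 11.4 and 10.5 CPM, and all 5 fell in the same order, highest in replicate 1 and lowest in replicate 3. RNA integrity and fragment length of the libraries were not analysed here, and their part in this was not tested. The protein-coding genes among the 10 were SPAC977.14c, of the aldo-keto reductase family, at 175, 160.0 and 118 CPM, the ferric reductase frp1 at 22.1, 22.9 and 16.1 CPM, the ribosome biogenesis gene nop4 at 36.7, 36 and 26.9 CPM and SPAC26F1.11 at 7.83, 9.64 and 6.89 CPM, and SPNCRNA.242 was at 36.1, 33.4 and 26.6 CPM. These 5 genes were also lowest in replicate 3, the deepest library.

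Set against the other 9 libraries, the H3 WT libraries passed a cut of adjusted p under 0.05 in 3 of 12 transcript classes (25.0%). The test was an exact two-sided permutation over libraries, with Benjamini-Hochberg adjustment over the 12 classes. It takes single libraries as exchangeable units, although they come in groups of 3 by genotype. Its p-values therefore do not measure the spread between genotypes or between cultures. Named antisense RNAs held 0.668 to 0.686% of the counts in H3 WT, and 0.811 ± 0.0134% in H3 G34R, 0.815 ± 0.0157% in H3 G34V and 1.07 ± 0.0161% in the Set2D group. All 3 H3 WT libraries lay below all 9 others (exact permutation adjusted p = 0.0364). Long noncoding RNAs held 0.605 ± 0.00692% in H3 WT, against 0.682 ± 0.0181%, 0.725 ± 0.00900% and 0.695 ± 0.0177% in the same 3 groups, and H3 WT again lay below all 9 (exact permutation adjusted p = 0.0273). The class called small noncoding RNA here holds rows annotated as ncRNA, and their length was not used to define it. It held more in H3 WT, 0.00338 ± 0.000104% against 0.00276% over the other 9 (exact permutation adjusted p = 0.0273). However, 48.0% of this class was a single RNA of the SPNCRNA series, SPNCRNA.397. It stood at 16.2 ± 1.09 CPM in H3 WT and 12.4 ± 1.00, 6.70 ± 0.553 and 8.89 ± 0.392 CPM in the other groups. With classes taken from names alone, this class does not exist. The smallest p this design allows is 0.00455 with 3 H3 WT libraries and 0.0182 with 2, and without any 1 H3 WT library none of the 3 calls passed (adjusted p 0.109 to 0.175), while the antisense call also failed without any 1 Set2D library (adjusted p 0.104 to 0.121). The small noncoding call failed without the Set2D group (exact permutation adjusted p = 0.0536).

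The other 9 classes did not pass. Protein-coding genes held 94.5 ± 0.0740% in H3 WT and 93.9% over the other libraries, and all 3 H3 WT libraries lay above all 9 (exact permutation adjusted p = 0.142). Pseudogenes and nuclear rRNA lay below all 9 in all 3 H3 WT libraries (exact permutation adjusted p = 0.198 and 0.142). The test compares mean shares, so such a separation need not pass it. Mitochondrially encoded genes held 3.41 ± 0.0591% and 3.68% (exact permutation adjusted p = 0.164), and snoRNAs 0.253 ± 0.0375% and 0.214% (exact permutation adjusted p = 0.145), with overlap between the libraries in both. Shares of 1 library sum to a fixed total, so the classes are not independent. The 9 other libraries belong to 3 genotypes and are not replicates of a single condition.

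**Figure D5:**
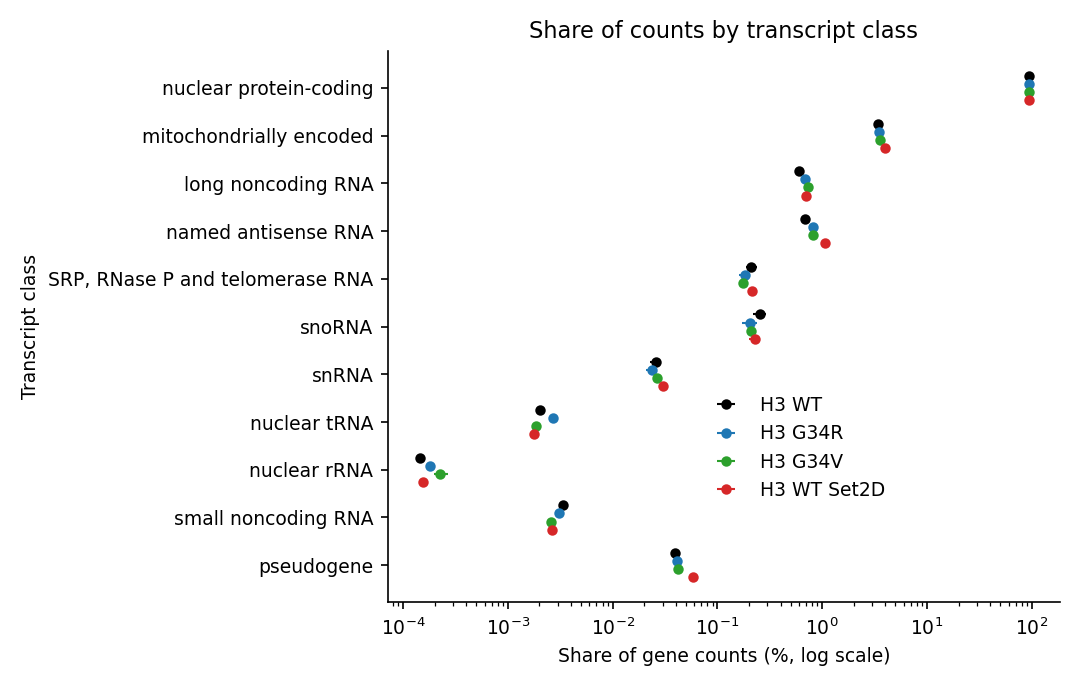
Share of gene counts held by each transcript class in every library of the 4 groups on a logarithmic axis, as the group mean (point) and the lowest to highest library (bar), 3 libraries per group. Named antisense RNAs sit at 0.668 to 0.686% in H3 WT and at 0.796 to 1.08% in the other libraries.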

How the data were processed

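Whole-number read counts per gene were deposited by the authors as 1 file for each library. Per the submitters' processing notes, CASAVA 1.7, cutadapt, STAR, SAMtools and HTSeq were used with build ASM294v2; further versions and settings are not stated there. Libraries were stranded and depleted of ribosomal RNA, per the labels' protocols.

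CPM was computed here as the count over the sum of the 7013 gene rows, without the 5 HTSeq summary lines. In H3 WT those lines held, as a share of all counts, 2.02% outside genes, 2.09% ambiguous, 7.29% not aligned and 12.9% aligned to several places. TPM used exon lengths of build ASM294v3, a later build used only for names, classes, lengths, overlap and distance from chromosome ends; 6211 names matched and 802 did not, most of them antisense RNAs classed by name. Shared sequence was measured with blastn 2.17.0. Groups came from the genotype labels. Spread used filterByExpr, TMM and estimateDisp in edgeR 4.0.16 and was tested on simulated data. Class shares were compared by an exact two-sided permutation test over 220 arrangements of the 12 libraries. All nonzero counts of 1 Set2D library were even, and they were used as deposited.

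Genes named are the 20 highest by CPM and by TPM (protein-coding), the highest and 2 lowest of each list and all members of lists of at most 12, the 10 highest noncoding and 5 highest antisense RNAs, protein-coding genes at 0, the 10 most variable genes at 5 CPM or more and the 10 most unequal ribosomal protein pairs; others serve as group examples. Members, lists and this rule were chosen with earlier results of these data known. R 4.3.3, DESeq2 1.42.0 (size factors as an alternative), Python 3.11.15, numpy 2.4.6, pandas 2.3.3, scipy 1.17.1 and matplotlib 3.10.9 were used.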

Additional observations from a re-analysis of the deposited data

How the results depend on the processing

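No paired analysis was possible because replicate numbers here only name libraries: nothing in the labels ties a library of one group to one of another. With all lines of the files as the denominator the class shares in H3 WT became 71.5% for protein-coding genes, 2.58% for mitochondrially encoded genes, 0.458% for long noncoding RNAs and 0.513% for named antisense RNAs, by construction. With classes taken from names alone they were 97.4%, 0.822% and 0.591% for the first 3, 0.108% for snoRNAs and 0.228% for snRNAs. Per kilobase, the 10 highest genes held 11.3%, the 100 highest 37.0%, and 209 genes reached 50% of the total; over protein-coding genes alone the 100 highest held 29.3%. With gene spans in place of exon lengths, and ratios taken within each library, the glycolysis median was 53.4 and the meiosis median 0.166 times the coding median (50.5 and 0.175 with exon lengths). The count of genes near zero, 528, was 528 with TMM and 529 with DESeq2 size factors, while a library's scaling factor cannot change a list median relative to the coding median. The coefficient of variation was 2.33 to 3.57% when 1 H3 WT library was left out. Without the Set2D group, the protein-coding share was 0.270 percentage points higher in H3 WT than in the others and passed the exact permutation test (adjusted p = 0.0476), the small noncoding difference was 0.000561 points and did not (adjusted p = 0.0536), and the snRNA difference changed sign to 0.000658 points, not past the threshold (adjusted p = 0.750). Leaving out 1 library in turn, the differences (H3 WT minus others) were -0.101 to -0.0918 points for long noncoding RNAs, -0.233 to -0.198 points for named antisense RNAs and 0.000556 to 0.000660 points for small noncoding RNAs; the snRNA difference was -0.00276 to 0.000463 points, the positive value without H3 WT replicate 3. The causes of these changes were not tested. With 2 H3 WT libraries the smallest p is 0.0182, which limits what these tests can call. Depth limits values near zero: 3 counts correspond to at most 0.0188 CPM.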

Other observations

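The 3 chromosomes were alike in typical level, with medians over protein-coding genes of 61.7 ± 0.677 TPM on chromosome I (2319 genes), 63.1 ± 0.937 TPM on II (1855 genes) and 61.2 ± 0.781 TPM on III (911 genes). Genes with introns had a median of 63.5 ± 1.02 TPM (2442 genes) and genes without 60.6 ± 1.02 TPM (2643 genes). The latter held 62.1% of all gene counts and the former 32.4%, and 45 genes without introns were under 0.1 CPM against 8 with introns. The 105 genes named mug, found as upregulated in meiosis, had a median of 23.9 ± 0.402 TPM, and none was under 0.1 CPM. The highest of them, mug64, reached 244 TPM.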
